A study of Mus musculus with 6 samples.

Results

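The Toll-like receptors Tlr1, Tlr2, Tlr3, Tlr4, Tlr7 and Tlr13, the NOD-like receptors Nod1, Nod2 and Nlrp3 and the adaptor Myd88 were followed by RNA sequencing in primary vascular smooth muscle cells of the mouse. The 10 genes were chosen by name from the 44792 genes of the count table. There were 3 libraries of Ncor1 knockout cells (genotype Ncor1-/-) and 3 of control cells, which the labels call wild type and the design text describes as littermate controls, all on the C57BL/6 strain. The product of Ncor1, nuclear receptor corepressor 1, links transcription factors to histone deacetylase 3. The knockout cells came from mice with a smooth muscle deletion that 4-hydroxytamoxifen (4-OHT) induces, and the design text names 4-OHT for the cells of both groups in a single sentence. The sources used here do not give the driver of the deletion or the age of the animals. The design text speaks of 3 mice and also of technical replicates per group, and the p-values therefore reflect only library-to-library spread, which may be technical.

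Pattern recognition receptors detect molecules of microbes and of damaged cells. Tlr1, Tlr2 and Tlr4 act at the cell surface, with Tlr1 pairing with Tlr2 on bacterial lipopeptides and Tlr4 detecting lipopolysaccharide. Tlr3, Tlr7 and Tlr13 detect RNA inside endosomes, Nod1 and Nod2 detect bacterial cell wall peptides in the cytosol, and Nlrp3 forms the inflammasome that activates caspase-1. Myd88 carries the signal of the Toll-like receptors named here other than Tlr3 to NF-kappaB, a transcription factor of inflammatory genes. Vascular smooth muscle cells, endothelial cells and macrophages all use receptors of these families, and Tlr7 and Tlr13 are best known from myeloid cells.

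Libraries held 7125538 to 9579490 counts in knockout and 7231968 to 9005690 counts in control cells. Levels are in CPM, counts scaled to library size, after TMM scaling for library composition. Means carry the SD over the 3 libraries of a group. Positive log2 fold changes mean higher in knockout cells, and SE is the standard error from the fit. A gene counts as called where edgeR's quasi-likelihood test gave an adjusted p (Benjamini-Hochberg over 13323 tested genes) of at most 0.05. Ncor1 itself stood at 99.3, 93.7 and 94.4 CPM in knockout libraries, against 213, 223 and 230 CPM in control libraries (log2 fold change -1.21, SE 0.0445, adjusted p = 1.08e-33). Since whole genes were counted, reads of exons that were not deleted can enter this level. The source of the level left in knockout libraries was not tested. Contractile smooth muscle markers were present in both groups, with summed levels of 3917 to 4120 CPM in knockout and 11548 to 11749 CPM in control libraries. Of the 10 markers 9 fell, against 26.2% of all genes tested, and 0 were at 0 counts throughout.

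Markers of other cell types were measured in the same libraries. Among all genes tested 26.4% rose and 26.2% fell. Of 20 macrophage and leukocyte markers 19 rose. Their median log2 fold change was 3.33, with a summed level of 727 to 780 CPM in knockout and 60.2 to 88.1 CPM in control libraries, and 0 of the 20 were at 0 counts throughout. Cd68, a lysosomal protein of macrophages, averaged 39.4 ± 2.06 CPM in knockout and 3.01 ± 0.284 CPM in control cells (named after its values were seen). Of 16 endothelial markers 15 rose and 1 fell, with a median of 1.71 and a summed level of 7127 to 7296 CPM in knockout and 2066 to 2148 CPM in control libraries. Lymphocyte, neutrophil and dendritic cell markers summed to at most 1.28 CPM per knockout library and 0.731 CPM per control library. Of 8 fibroblast markers 3 were tested, with 1 higher (Dcn) and 2 lower (Pdgfra and Col14a1), all named after their values were seen. The 8 summed to 357 to 367 CPM in knockout and 124 to 127 CPM in control libraries. Dcn alone averaged 321 ± 7.60 CPM in knockout and 26.1 ± 2.61 CPM in control cells (log2 fold change 3.62). Of 5 mast cell markers the tested one was Kit, which other cells also express. In bulk libraries, fewer cells of a type and less RNA per cell cannot be told apart. The part of the macrophage and endothelial marker levels in the results below was not tested.

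Control replicate 2 stood apart for this family. It had the highest level of the 3 control libraries in 9 of the 10 genes, the exception being Nod2, against 32.5% of all genes tested. The excess over the mean of control replicates 1 and 3 was 4.90-fold for Tlr7, 4.40-fold for Nlrp3, 3.07-fold for Tlr1 and 1.94-fold for Tlr13, all with at most 9 counts in any control library. It was 1.81-fold for Tlr2, 1.30-fold for Tlr3, 1.11-fold for Nod1, 1.07-fold for Myd88 and 1.01-fold for Tlr4. Results that rest on this library are given with and without it.

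Of the 10 genes, 7 rose in knockout cells (Tlr1, Tlr3, Tlr4, Tlr7, Tlr13, Nod1 and Nod2), against 26.4% of all genes tested. Tlr2 and Myd88 did not pass the test, and Nlrp3 had too few counts to be tested. By edgeR 0 of the 10 were lower, against 26.2% of all genes tested, with 1 (Myd88) under an unadjusted p of 0.05. The DESeq2 Wald test also called 0 lower, against 15.5% of its genes, and 0 at an unadjusted p under 0.05. Without control replicate 2, 8 of the 10 were higher, against 24.8% of the genes tested in that fit. The low-count filter (at least 1.28 CPM in 3 libraries) was met by 9 of the 10 genes. Of these, 6 met it in all 6 libraries, while Tlr1, Tlr7 and Tlr13 met it through the knockout libraries only and so had to be higher there to be tested at all. Genes of the marker and pathway lists could also meet it through the libraries of 1 group only, and these had to be higher in that group to be tested. The filter thus set part of the counts and medians of the lists. Under other settings 7 of the 10 were called higher with no filter (15.9% of all genes), with DESeq2 size factors (26.5%), with library totals alone (39.8%), with the replicate block (26.3%), and in the limma fits on log2(FPKM + 1) (37.0%), on log2(FPKM + 0.1) (36.8%) and without filter (20.3%). In the filtered limma fits the 7 held Tlr2 and not Tlr1, which fell short of the FPKM limit and was not tested there. The DESeq2 Wald test called 6 higher, against 16.4% of its genes. Leaving out a library gave 6 to 8, against 24.8% without knockout replicate 1, 24.6% without knockout replicate 2, 24.5% without knockout replicate 3, 23.8% without control replicate 1 and 24.7% without control replicate 3. In TMM-scaled CPM, knockout and control levels did not overlap for 7 genes with the knockout above, against 29.0% of all genes tested, and for Myd88 with the knockout below, against 28.8%.

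**Figure D1:**
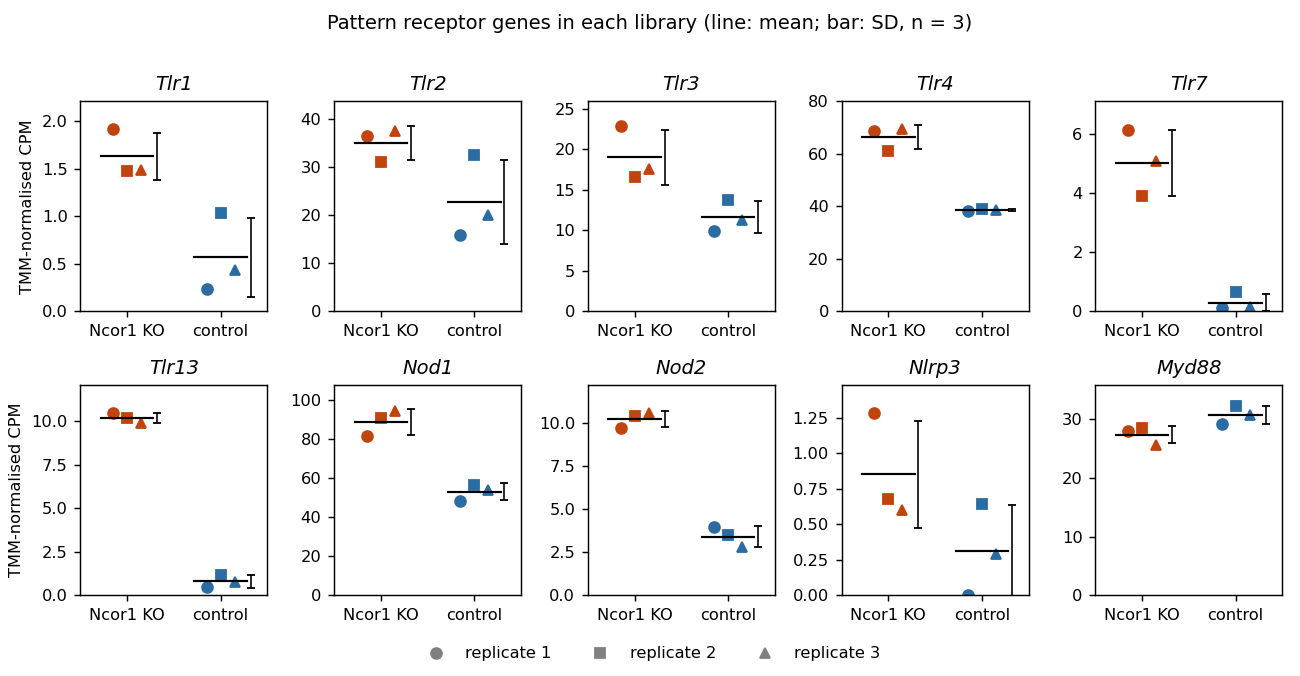
TMM-normalised CPM of the 10 genes in each library, with Ncor1 knockout libraries on the left and control libraries on the right of every panel; symbols mark the replicate number, lines the mean and bars the SD (n = 3), with ends below 0 not drawn. Knockout points lie above all control points in 7 panels, overlap with control points for Tlr2 and Nlrp3, and lie below them for Myd88.

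Promoter sequences are shown for the receptor that passed the test once control replicate 2 was left out (Tlr2), an RNA sensor with a large change (Tlr13), a NOD receptor that rose (Nod2) and the adaptor that did not pass the test (Myd88). Each is the 250 bases before the RefSeq start in GRCm38.p6, 5′ to 3′ on the gene's strand, with matches to the motifs named below in capitals. The promoter of Tlr2 lies on the minus strand at chr3:83841609-83841858, that of Tlr13 on the plus strand at chrX:106143025-106143274, that of Nod2 on the plus strand at chr8:88647097-88647346 and that of Myd88 on the minus strand at chr9:119340019-119340268.
Tlr2: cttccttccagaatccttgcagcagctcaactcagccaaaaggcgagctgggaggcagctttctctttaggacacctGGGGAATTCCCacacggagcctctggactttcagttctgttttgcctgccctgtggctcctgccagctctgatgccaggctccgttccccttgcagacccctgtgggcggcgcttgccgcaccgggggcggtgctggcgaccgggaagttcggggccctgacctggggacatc
Tlr13: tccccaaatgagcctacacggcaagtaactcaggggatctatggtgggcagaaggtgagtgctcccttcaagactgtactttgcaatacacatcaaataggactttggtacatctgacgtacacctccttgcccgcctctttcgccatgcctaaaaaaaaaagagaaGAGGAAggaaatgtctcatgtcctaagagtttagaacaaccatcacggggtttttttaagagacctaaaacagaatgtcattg
Nod2: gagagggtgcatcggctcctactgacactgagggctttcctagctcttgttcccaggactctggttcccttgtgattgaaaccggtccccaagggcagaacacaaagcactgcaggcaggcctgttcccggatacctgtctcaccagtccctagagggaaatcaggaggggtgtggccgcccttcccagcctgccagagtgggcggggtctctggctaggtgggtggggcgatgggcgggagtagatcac
Myd88: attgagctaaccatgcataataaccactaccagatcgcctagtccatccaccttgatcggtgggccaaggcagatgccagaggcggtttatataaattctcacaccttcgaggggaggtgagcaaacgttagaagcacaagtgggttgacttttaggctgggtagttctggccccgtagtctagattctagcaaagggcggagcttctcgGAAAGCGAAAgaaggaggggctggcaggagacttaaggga
The capitals mark a kappaB motif in Tlr2 (overlapping matches on both strands), a PU.1 core in Tlr13 and an IRF pair in Myd88, and the Nod2 window held no match. The table held 11 promoters for 8 of the 10 genes. Both strands were searched. The kappaB motif, bound by NF-kappaB, was found in 3 of the 11 (Tlr2, Tlr3 and Nlrp3), against 3.90% of 32851 promoters of the same length. The PU.1 core GAGGAA, bound by the myeloid factor PU.1, was found in 3 of the 11 (Tlr1, Nlrp3 and Tlr13), against 23.3%. The IRF pair motif, bound by interferon regulatory factors, was found in 1 of the 11, against 2.98%, and the AP-1 motif TGANTCA in 0 of the 11, against 6.75%. These matches are a description of letters, and binding was not measured.

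Among the surface receptors, Tlr4 rose and its control libraries were tight. It stood at 68.9, 61.3 and 69.5 CPM in knockout libraries, against 38.4, 38.9 and 38.7 CPM in control libraries. All knockout values lay above all control values, and the level was 1.73-fold higher (log2 fold change 0.79, SE 0.0669, adjusted p = 3.50e-16). Ly96, which encodes the MD-2 protein that binds lipopolysaccharide beside Tlr4, averaged 7.18 ± 1.78 CPM in knockout and 3.87 ± 0.233 CPM in control cells (log2 fold change 0.88, SE 0.197, adjusted p = 1.17e-04; this partner was named after its values were seen). Per length, Ly96 stood at 29.5 to 41.7 FPKM per 100 FPKM of Tlr4 in knockout libraries and 29.5 to 33.1 in control libraries, so the ranges overlapped. Cd14, another co-receptor, averaged 1.52 ± 0.201 CPM in knockout and 2.39 ± 0.796 CPM in control cells. It did not pass the test (log2 fold change -0.63, adjusted p = 0.0906, named after its values were seen).

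Tlr2 stood at 36.5, 31.0 and 37.4 CPM in knockout libraries, against 15.8, 32.4 and 20.0 CPM in control libraries. The knockout values were close together, and control replicate 2 lay within their range while the other control libraries lay below it. The difference did not pass the test (log2 fold change 0.63, SE 0.289, adjusted p = 0.143). Without control replicate 2 it did (0.99, adjusted p = 2.59e-13), and it also did by limma on log2(FPKM + 1) and log2(FPKM + 0.1), with 0.73 (adjusted p = 0.0219) and 0.80 (adjusted p = 0.0238). Under the other 11 of 14 alternatives Tlr2 stayed uncalled, with a log2 fold change as low as 0.4. Tlr1, the partner of Tlr2, was scarce, with 15, 11 and 15 counts in knockout libraries, against 2, 8 and 3 counts in control libraries. It was higher in every knockout library (1.63 ± 0.248 CPM in knockout and 0.567 ± 0.413 CPM in control cells, log2 fold change 1.51, SE 0.443, adjusted p = 0.0031). The ratio of summed counts, here and below scaled by the libraries' effective sizes, was 2.89 with an exact 95% interval of 1.52 to 5.88, which covers counting error only. Without control replicate 2 the log2 fold change was 2.27, while without control replicate 1 it was 1.09 and the call was lost (adjusted p = 0.0575), as it was by the DESeq2 test (adjusted p = 0.0655). Tlr1 has a close paralog in Tlr6, and reads shared between them could not be assigned here. Tlr6 averaged 2.68 ± 0.349 CPM in knockout and 3.56 ± 0.465 CPM in control cells and did not pass the test (log2 fold change -0.41, adjusted p = 0.155; named after its values were seen).

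The RNA-sensing receptors of the endosome spanned the widest range of change. Tlr13, which detects bacterial ribosomal RNA in mice, stood at 10.5, 10.2 and 9.94 CPM in knockout libraries, against 0.466, 1.16 and 0.731 CPM in control libraries. The knockout libraries were nearly level, and none of the control libraries came near them (log2 fold change 3.69, SE 0.255; adjusted p 5.57e-20). Summed over libraries there were 258 counts in knockout and 18 in control libraries, and their ratio after scaling was 13.1 (exact 95% interval 8.15 to 22.5). Tlr7, a sensor of single-stranded RNA, stood at 6.13, 3.90 and 5.07 CPM in knockout libraries, against 0.116, 0.643 and 0.146 CPM in control libraries. Groups did not overlap (log2 fold change 4.00, SE 0.39; adjusted p 8.39e-14). With 128 counts in knockout and 7 in control libraries the ratio was 16.8 with an interval of 7.90 to 42.5. On the log2(FPKM + 1) scale, which understates changes of scarce genes, limma gave 1.11 for Tlr7 and 1.63 for Tlr13, both called. Of the 7 control counts of Tlr7, 5 came from control replicate 2, and without that library the ratio was 39.0 and the log2 fold change 5.13. Macrophage and leukocyte markers had a median log2 fold change of 3.33 in the same libraries.

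Tlr3, a sensor of double-stranded RNA that signals through the adaptor Ticam1, stood at 22.9, 16.6 and 17.6 CPM in knockout libraries, against 9.90, 13.8 and 11.3 CPM in control libraries. Each knockout library was above each control library, by a smaller margin than for Tlr7 and Tlr13 (log2 fold change 0.71, SE 0.128, adjusted p = 4.12e-06). An antisense gene, Gm45542, overlaps Tlr3, and the use of strand in counting is not given in the sources used here, so reads of the pair cannot be told apart. Unc93b1, which carries the endosomal receptors out of the endoplasmic reticulum, averaged 31.7 ± 4.21 CPM in knockout and 14.4 ± 1.45 CPM in control cells (log2 fold change 1.15, SE 0.103, adjusted p = 6.30e-15; named after its values were seen). Per length, Tlr13 stood at 13.7 to 16.0 FPKM per 100 FPKM of Tlr4 in knockout libraries and at 1.16 to 2.86 in control libraries, and the ranges did not overlap.

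Both NOD receptors rose. Nod1 stood at 81.2, 90.5 and 94.3 CPM in knockout libraries, against 48.1, 56.5 and 53.9 CPM in control libraries. The groups were well apart, and the level was 1.69-fold higher (log2 fold change 0.76, SE 0.0626, adjusted p = 3.83e-16). Nod2 stood at 9.70, 10.4 and 10.6 CPM in knockout libraries, against 3.96, 3.47 and 2.78 CPM in control libraries. Its change was 2.97-fold (log2 fold change 1.57, SE 0.179, adjusted p = 1.84e-11), and it was the gene in which control replicate 2 did not lead. By limma on log2(FPKM + 1) the value was 0.96, also called. Per length, Nod2 stood at 10.7 to 11.3 FPKM per 100 FPKM of Nod1 in knockout libraries and at 4.88 to 7.80 in control libraries, with no overlap. Ripk2, the kinase that both NOD receptors recruit, fell to 79.8 ± 1.98 CPM in knockout cells, against 101 ± 8.49 CPM in control cells (log2 fold change -0.34, SE 0.0550, adjusted p = 2.85e-07). It lost its call by limma on log2(FPKM + 1) with no filter (-0.20, adjusted p = 0.0556).

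Nlrp3 had 10, 5 and 6 counts in knockout libraries, against 0, 5 and 2 counts in control libraries. The groups overlapped at 0.596 to 1.28 CPM in knockout and 0 to 0.643 CPM in control libraries, where 3 counts are 0.298 to 0.404 CPM in knockout and 0.349 to 0.439 CPM in control libraries. The ratio of summed counts was 2.75 with an exact 95% interval of 1.13 to 7.65 for counting error alone. With no filter, edgeR gave a log2 fold change of 1.42 with adjusted p = 0.0772, and the DESeq2 test gave adjusted p = 0.260. Without control replicate 2 the ratio was 6.40, and without control replicate 1 it was 1.73.

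Myd88 stood at 28.0, 28.5 and 25.7 CPM in knockout libraries, against 29.3, 32.3 and 30.8 CPM in control libraries. On this scale the groups did not overlap, while in deposited FPKM, scaled by library totals, they did (14.2 to 15.6 FPKM in knockout and 14.7 to 16.2 FPKM in control libraries). The difference did not pass the test (log2 fold change -0.17, SE 0.0841, adjusted p = 0.0764). With library totals alone, which shift the median of all genes by 0.13 on the log2 scale, it was -0.04. Myd88 overlaps Acaa1a on the opposite strand and Slc22a14 on the same strand in the annotation, so its counts may hold reads of these genes.

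Levels of different genes were compared per length, as deposited FPKM. In knockout libraries the order was Nod1 (21.2 ± 1.69 FPKM), Tlr4 (18.1 ± 1.29), Myd88 (15.0 ± 0.746), Tlr2 (12.5 ± 1.27), Tlr3 (3.92 ± 0.687), Tlr13 (2.66 ± 0.0580), Nod2 (2.31 ± 0.117), Tlr7 (1.33 ± 0.294), Tlr1 (0.539 ± 0.0806) and Nlrp3 (0.220 ± 0.0961), all in FPKM with SD. The 3 libraries of no neighbouring pair in that order overlapped. In control libraries Myd88 led (15.4 ± 0.785 FPKM), before Nod1 (11.5 ± 0.955), Tlr4 (9.58 ± 0.0902), Tlr2 (7.41 ± 2.85), Tlr3 (2.19 ± 0.379) and Nod2 (0.702 ± 0.125). Tlr13, Tlr1, Nlrp3 and Tlr7 followed at 0.186, 0.172, 0.0740 and 0.0732 FPKM and overlapped each other from neighbour to neighbour, as Tlr4 and Tlr2 did. Summed over the 10 genes, the level was 74.9 to 79.9 FPKM in knockout and 42.7 to 53.1 FPKM in control libraries.

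**Figure D2:**
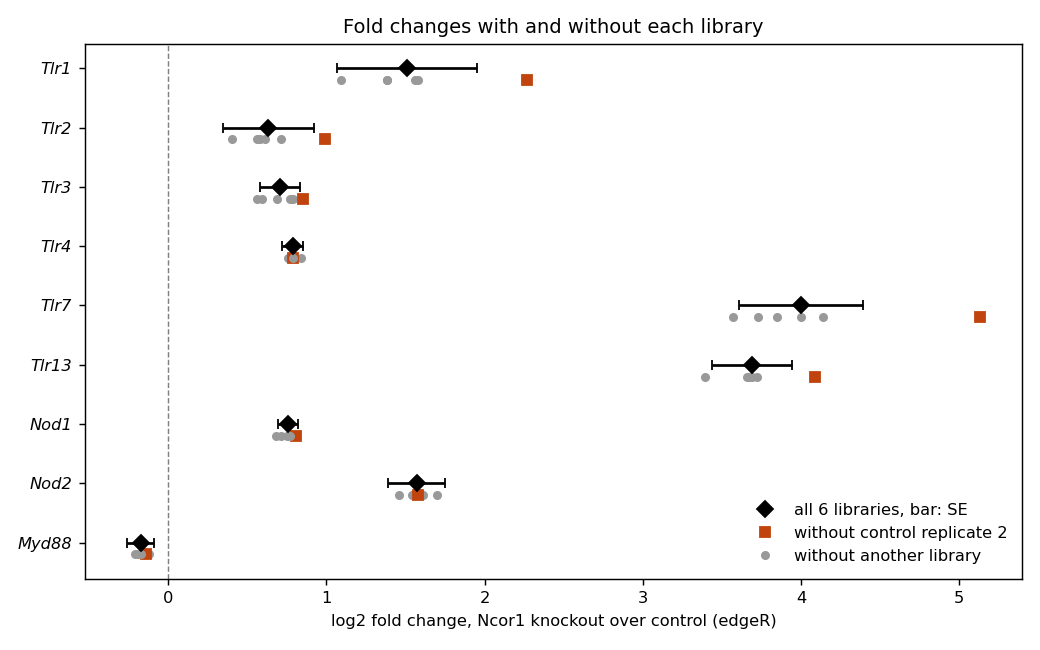
Log2 fold change, Ncor1 knockout over control, of the 9 tested genes with all 6 libraries (black diamonds, bars for the SE) and with 1 library left out (grey circles, and red squares for control replicate 2). The red squares of Tlr1 (2.27), Tlr2 (0.99), Tlr3 (0.85), Tlr7 (5.13) and Tlr13 (4.09) lie beyond the SE of the full fit, while those of Tlr4 (0.79) and Nod2 (1.58) lie on it.

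Genes whose pattern over the 6 libraries was most like each receptor were found by the root-mean-square distance of centred log2(CPM + 0.5), a measure dominated by the difference between groups. The nearest to Tlr7 were Ms4a6c (distance 0.115) and Ccr1 (0.158), and to Tlr13 Lyz2 (0.115) and Ccr1 (0.126). Tlr2 was nearest to Car9 (0.117) and Nfkbia (0.122), and Tlr1 to Tnfaip3 (0.115) and Nek6 (0.132). Nfkbia and Tnfaip3 encode inhibitors of NF-kappaB signalling that are themselves its targets. The nearest were Nus1 (0.0304) and Nmnat2 (0.0333) for Tlr4, Dusp10 (0.0488) and Plcxd2 (0.0537) for Nod1, and Kank3 (0.0633) and Depdc7 (0.0635) for Nod2. Itpr2 (0.0764) and Tnfsf9 (0.0844) were nearest to Tlr3, and Zfp326 (0.0222) and Sri (0.0248) to Myd88.

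Signalling partners were followed in lists of pathway genes. Among all genes tested 26.4% rose and 26.2% fell. Of 15 co-receptors and trafficking factors 14 were tested, and 10 rose, 1 fell and 3 did not pass. The list's median was 1.31 on the log2 scale, against 0.00 over all genes tested. Cd36 and others of this list met the low-count filter through the knockout libraries only and so had to be higher there to be tested. Cd36, a scavenger receptor that assists Tlr2, averaged 10.5 ± 1.59 CPM in knockout and 0.922 ± 0.348 CPM in control cells (log2 fold change 3.44, SE 0.247, adjusted p = 3.04e-19). Lrrc32, a leucine-rich repeat protein better known for holding latent TGF-beta at the cell surface, averaged 532 ± 19.8 CPM in knockout and 191 ± 12.9 CPM in control cells (1.48, SE 0.0395, adjusted p = 2.83e-39). Hsp90b1, the chaperone that folds Toll-like receptors, fell to 1114 ± 14.8 CPM in knockout cells, against 1346 ± 51.8 CPM in control cells (-0.27, SE 0.0312, adjusted p = 1.91e-11). Without control replicate 1 the number lower was 2. Macrophage and leukocyte markers had a median of 3.33 and endothelial markers of 1.71, and their part in this list was not tested.

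The adaptors and kinases that could be tested changed by less than 1 on the log2 scale. Of 21 listed genes 20 were tested, and 8 rose, 3 fell and 9 did not pass. Among all genes tested 26.4% rose and 26.2% fell. Log2 fold changes ran from -0.60 to 0.76 with the median at 0.11. Tirap, which bridges Tlr2 and Tlr4 to Myd88, averaged 47.2 ± 1.62 CPM in knockout and 28.0 ± 2.59 CPM in control cells (0.76, SE 0.0771, adjusted p = 4.19e-13). That was the highest log2 fold change among the tested genes of the list. The ubiquitin ligase Traf3 rose by a log2 fold change of 0.38 (SE 0.0547). Ikbkg, the regulatory subunit of the IkappaB kinase complex, fell to 9.71 ± 1.06 CPM in knockout cells, against 14.6 ± 2.36 CPM in control cells (-0.60, SE 0.134, adjusted p = 1.33e-04), a call lost in all 3 limma fits on FPKM (adjusted p between 0.0718 and 0.140). Ticam1, the adaptor of Tlr3, averaged 26.3 ± 1.64 CPM in knockout and 29.0 ± 1.63 CPM in control cells and did not pass the test (-0.14, adjusted p = 0.190; named after its values were seen).

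Other receptors of the Toll-like and NOD-like families were mostly too scarce to be tested. Of 20 listed, 5 were tested, with 2 higher, 2 lower and 1 not called, and a median of -0.41. Among all genes tested 26.4% rose and 26.2% fell. Nlrc5, a transactivator of MHC class I genes, averaged 7.21 ± 0.394 CPM in knockout and 1.08 ± 0.729 CPM in control cells (2.78, SE 0.272, adjusted p = 8.83e-14). Naip6, a flagellin sensor with close paralogs, averaged 2.26 ± 0.567 CPM in knockout and 0.444 ± 0.186 CPM in control cells (2.37, SE 0.427, adjusted p = 3.11e-06). Naip6 met the low-count filter through the knockout libraries only. Nlrx1, a mitochondrial family member, fell to 9.62 ± 0.931 CPM in knockout cells, against 18.0 ± 1.76 CPM in control cells (-0.91, SE 0.126, adjusted p = 6.59e-09). Nlrc3 fell by 0.42 on the log2 scale (SE 0.129, adjusted p = 0.00491), a call lost without control replicate 2 (-0.25, adjusted p = 0.135), with library totals alone, by DESeq2 and in all 3 limma fits (adjusted p between 0.0523 and 0.375). The number higher was 6 with no filter and by DESeq2, and 3 to 5 with a library left out, where 7 to 9 were tested in place of 5. In each of these fits 2 of the genes called higher had been tested with all libraries, and the rest were newly tested (the total was 4 without knockout replicate 1, 4 without knockout replicate 2, 5 without control replicate 1, 4 without control replicate 2 and 5 without control replicate 3). Tlr8, an endosomal receptor beside Tlr7 on the X chromosome, had 12, 20 and 12 counts in knockout libraries, against 2, 0 and 1 counts in control libraries, with a scaled ratio of 13.4 (exact 95% interval 4.31 to 67.7; named after its values were seen). Other untested receptors went both ways. Among all genes tested, all knockout values lay above all control values for 29.0% and below them for 28.8%. Tlr12, Nlrc4, Naip2 and Naip5 were higher in every knockout library, at few counts. Scaled ratios were 2.52 for Nlrc4 (interval 0.747 to 10.8, which covers 1), 4.43 for Naip2 (1.81 to 13.0) and 3.87 for Naip5 (1.84 to 9.10). Tlr12 had 13 counts in knockout and 0 in control libraries. Tlr5 and Nlrp10 were lower in knockout libraries, with ratios of 0.102 (interval 0.00232 to 0.735) and 0.414 (0.228 to 0.729). These were also named after their values were seen.

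Most tested inflammasome genes around Nlrp3 rose, while the cytokine substrates were too scarce to be tested. Of 15 listed genes 9 were tested, and 7 rose, 1 fell and 1 did not pass. Among all genes tested 26.4% rose and 26.2% fell. The list's median was 0.57 on the log2 scale. Gsdmd, which encodes the pore-forming gasdermin D, averaged 36.4 ± 3.36 CPM in knockout and 11.9 ± 0.862 CPM in control cells (1.62, SE 0.101, adjusted p = 3.28e-22). Casp4, the cytosolic lipopolysaccharide-sensing caspase, averaged 44.8 ± 1.12 CPM in knockout and 20.7 ± 4.45 CPM in control cells (1.11, SE 0.0907, adjusted p = 1.14e-15). Casp1, the protease of the inflammasome, averaged 14.5 ± 1.71 CPM in knockout and 5.52 ± 0.568 CPM in control cells (1.38, adjusted p = 3.86e-12), and its adaptor Pycard rose by 1.11 (adjusted p = 2.64e-05). Txnip, a thioredoxin-binding protein, was lower by a small margin (-0.14, SE 0.0456, adjusted p = 0.00867), a call lost with library totals alone (-0.01, adjusted p = 0.839), in all 3 limma fits, without knockout replicate 3 (adjusted p = 0.177) and without control replicate 3 (adjusted p = 0.0614). The cytokine substrate Il1b had 1, 0 and 1 counts in knockout libraries, against 0, 7 and 5 counts in control libraries, and Il18 had 2 counts in all knockout and 1 in all control libraries (Casp1, Pycard, Il1b and Il18 were named after their values were seen).

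Negative regulators went both ways, as did all genes tested, of which 26.4% rose and 26.2% fell. Of 22 listed genes 21 were tested, and 11 rose, 5 fell and 5 did not pass, with a median of 0.35. The part of the list that fell was near that of all genes tested. Mertk, a receptor for apoptotic cells that dampens Toll-like receptor signals, averaged 293 ± 11.9 CPM in knockout and 110 ± 3.13 CPM in control cells (1.41, SE 0.0423, adjusted p = 2.06e-38). Tnip1, a partner of the A20 deubiquitinase, averaged 118 ± 2.50 CPM in knockout and 67.0 ± 3.25 CPM in control cells (0.83, SE 0.0529). Il1rl1, the interleukin-33 receptor, fell to 0.905 ± 0.359 CPM in knockout cells, against 4.12 ± 0.264 CPM in control cells (-2.17, SE 0.306, adjusted p = 1.02e-08), and Socs1, an inhibitor of cytokine signalling, fell by 1.60 on the log2 scale (SE 0.317, adjusted p = 1.67e-05). The number lower was 3 without knockout replicate 2. Endothelial markers had a median of 1.71 and macrophage markers of 3.33 here.

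Target genes of the pathway showed how far control replicate 2 stood from the rest. Of 25 listed targets 10 were tested, and 6 rose, 0 fell by edgeR (0 at an unadjusted p under 0.05, and 0 by the DESeq2 test) and 4 did not pass, with a median of 0.81. Over all genes tested edgeR called 26.4% higher and 26.2% lower, and DESeq2 called 15.5% of its genes lower. Without control replicate 2 the low-count filter let 13 targets be tested, and 10 of them were higher, against 24.8% of the genes tested in that fit. These were 7 of the 10 tested with all libraries and 3 newly tested ones. Without control replicate 1 the number lower was 1. Icam1, a leukocyte adhesion molecule, averaged 537 ± 5.05 CPM in knockout and 153 ± 9.42 CPM in control cells (1.81, SE 0.0389, adjusted p = 2.20e-46), and Ptgs2, the inducible cyclooxygenase, averaged 516 ± 25.2 CPM in knockout and 197 ± 3.05 CPM in control cells (1.39, SE 0.0379, adjusted p = 1.16e-40). Of the 23 targets with any count, control replicate 2 was the highest control library in 20. The chemokine Cxcl1 stood at 2.68, 2.02 and 2.68 CPM in knockout libraries, against 2.44, 14.5 and 4.53 CPM in control libraries. The iron-binding protein gene Lcn2 stood at 0.894, 1.35 and 1.59 CPM in knockout libraries, against 0.466, 6.43 and 1.32 CPM in control libraries. Neither passed the test, and without control replicate 2 the log2 fold change was -0.44 in place of -1.51 for Cxcl1 and 0.61 in place of -1.05 for Lcn2, again without a call (adjusted p = 0.212 and 0.313; both were named after their values were seen). Nfkbia stood at 106, 99.2 and 98.2 CPM in knockout libraries, against 49.0, 80.8 and 56.9 CPM in control libraries, and Tnfaip3 at 106, 88.2 and 93.5 CPM in knockout, against 34.0, 56.9 and 43.1 CPM in control libraries. Both rose (0.70, adjusted p = 0.0417, and 1.11, adjusted p = 0.00992), and both adjusted p were smaller without control replicate 2 (1.90e-22 and 3.95e-15). Macrophage and leukocyte markers were highest in control replicate 2 among controls in 9 of 20 cases, with a summed level of 88.1 CPM there and of 60.2 and 77.0 CPM in control replicates 1 and 3. Among them Emr1, a macrophage surface marker, had 5.92 CPM in control replicate 2 and 0.466 and 3.07 CPM in the other control libraries (named after its values were seen). Their part in the stand of control replicate 2 was not tested.

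**Figure D3:**
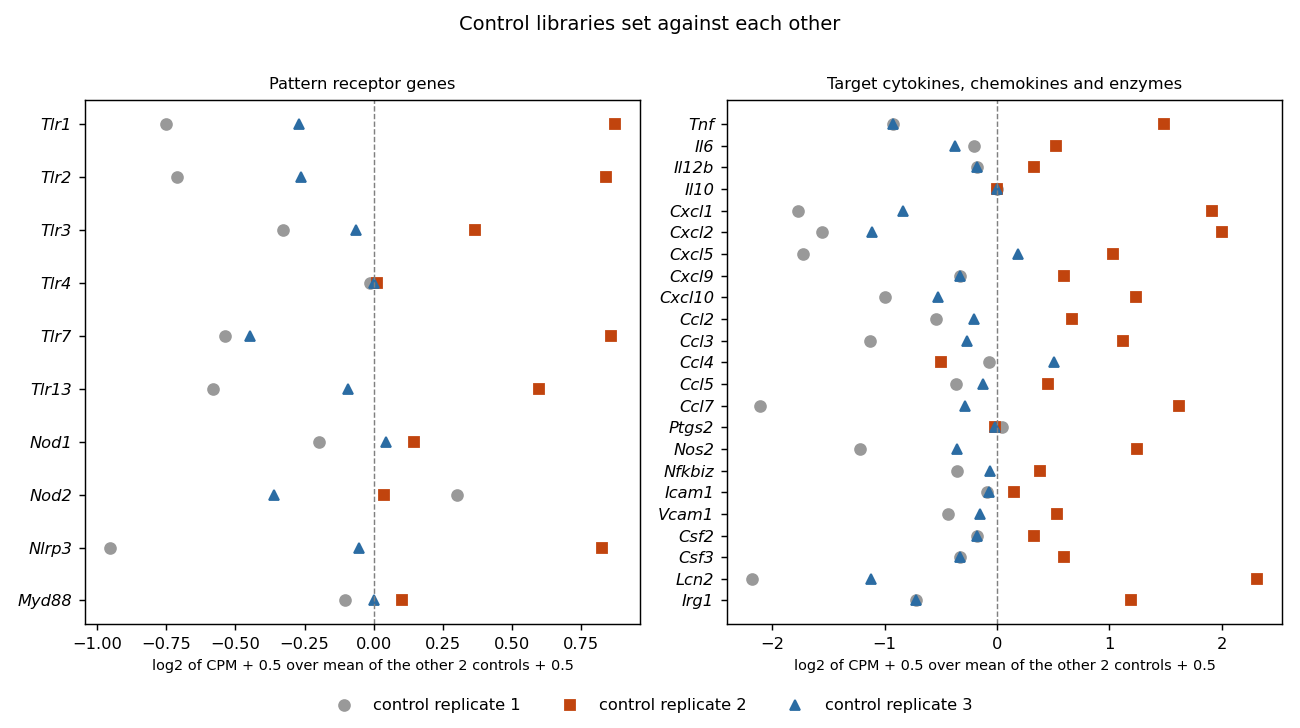
Log2 ratio of each control library to the mean of the other 2 control libraries (CPM + 0.5) for the 10 receptor and adaptor genes (left) and for the 23 target genes with any count (right). Control replicate 2 (red squares) is the highest in 9 of 10 genes on the left and 20 of 23 on the right.

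**Figure D4:**
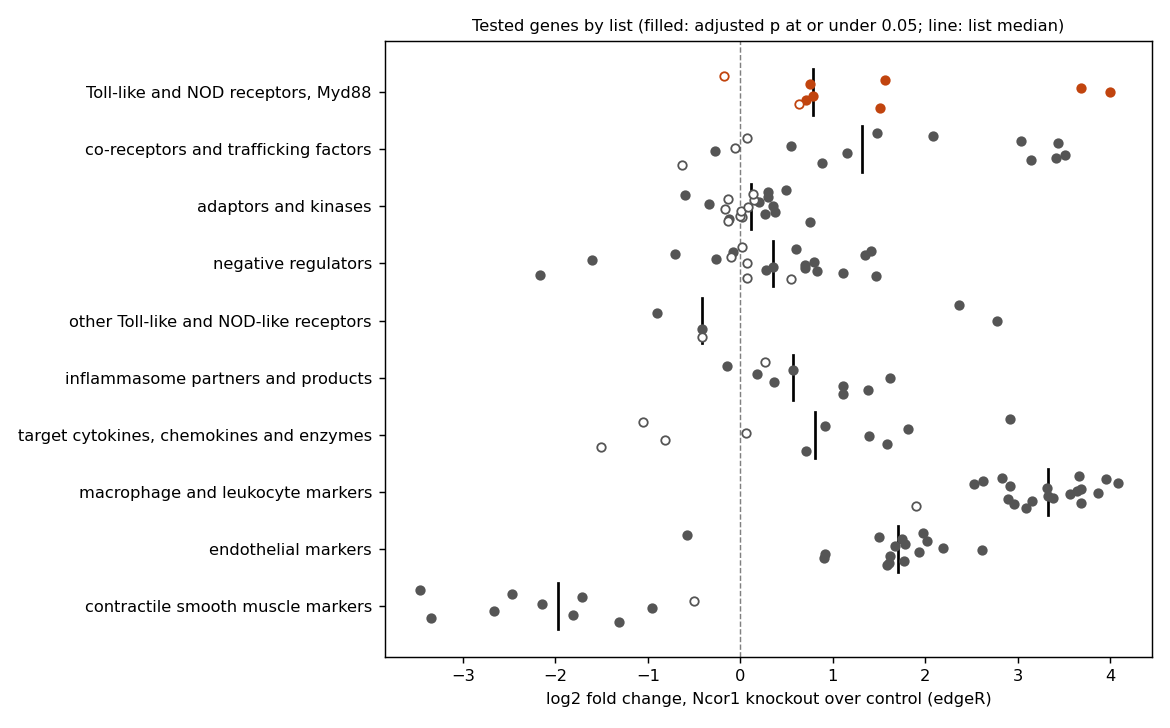
Log2 fold change, Ncor1 knockout over control, of every tested gene of the receptor group (red) and of the pathway and marker lists (grey); filled points passed an adjusted p of 0.05 and vertical lines are medians. The receptor group has a median of 0.79, with Tlr7 (4.00) and Tlr13 (3.69) in the range of the macrophage and leukocyte markers (1.90 to 4.08).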

How the data were processed

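Bulk RNA sequencing of total RNA, extracted with Trizol and made into libraries by Illumina's protocol (per the labels' protocols), gave 6 libraries. Per the submitters' processing notes, HISAT2 2.0 and mm9 were used. For the counter, annotation, strand and filters: not given in the sources used here. Gene counts deposited by the authors are whole numbers without normalization, and the deposited FPKM table equalled counts over library total and a gene length (12180 genes, largest relative spread 1.05e-05).

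Of 23349 genes with a count, 13323 passed edgeR's filterByExpr. Under R 4.3.3, edgeR 4.0.16 was run with TMM scaling and robust quasi-likelihood tests (two-sided), and the SE is the log2 fold change over the square root of F. The fit had no replicate term. It was also run on simulated data with far fewer changed genes than were called here, so no conclusion is drawn from that run. Intervals of count ratios are exact, conditional on the total, and cover counting error only. Library pairs within groups differed beyond sampling noise (chi-square per degree of freedom 1.38 to 1.84), so none was treated as a copy of another. This cannot tell libraries of different mice from technical replicates.

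The 10 genes and all lists were chosen with earlier results of these data known. Genes named by rule were the 10, Ncor1, up to 2 higher and 2 lower called genes per pathway list with the smallest adjusted p, and the 2 nearest genes of each receptor; others are marked in the text. Promoters come from RefSeq, build GRCm38.p6, used for letters only since the counts name mm9. Alternatives were DESeq2 1.42.0 size factors and Wald test, library totals alone, no filter, limma 3.58.1 on log2(FPKM + 1) and log2(FPKM + 0.1) (genes reaching 1 FPKM in 3 libraries) and unfiltered, each library left out, and a replicate block.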

Additional observations from a re-analysis of the deposited data

How the results depend on the processing

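Tlr3, Tlr4, Tlr7, Tlr13, Nod1 and Nod2 kept their direction and call under all 14 alternatives, with the size of Tlr7 (1.11), Tlr13 (1.63) and Nod2 (0.96) smallest by limma on log2(FPKM + 1), and Myd88 stayed below 0 and uncalled (log2 fold change -0.21 to -0.03). The number of the 10 genes called higher was 7 with DESeq2 size factors, library totals, no filter and the limma fits, 6 by the DESeq2 test, and 6 to 8 with a library left out. The replicate block left it at 7. In the filtered limma fits the 7 held Tlr2 and not Tlr1, which was not tested there. Deviations of libraries with the same number were nearly uncorrelated (r 0.00398 to 0.0232). This cannot settle whether libraries were paired, and the block says nothing of pairing. Library totals alone gave 5305 higher and 2405 lower genes (68.8% of calls higher, against 50.1% with TMM). The 35 recomputed count ratios all stayed inside the counting intervals of the full data. These intervals are wide and the ratios share most of their counts with the full data, so this says little of stability. With a library left out, the ratio ran from 12.3 to 39.0 for Tlr7 and from 1.73 to 6.40 for Nlrp3. For the 26 genes outside the 10 that were named by rule for their calls (Ncor1 included), 333 of 358 values kept the call, 25 lost it and 0 turned sign. Genes named after their values were seen were not run through all settings, and Lcn2 and Ccl7 turned sign without control replicate 2 (0.61 in place of -1.05 and 0.09 in place of -0.81, uncalled in both fits). List counts moved by over 1.5 times in 43 of 224 cases. Adaptors lower were 1 in the filtered limma fits and 0 in the limma fit without filter, against 3. Co-receptors lower were 1 to 2 with a library left out. Other receptors higher were 6 with no filter and by DESeq2, 0 in the filtered limma fits, 5 in the limma fit without filter and 3 to 5 with a library left out, against 2; lower, they were 1 with library totals, DESeq2 and the filtered limma fits and 4 with no filter, against 2. Inflammasome genes lower were 2 with no filter, 0 with library totals and in the limma fits, and 0 to 1 with a library left out. Negative regulators lower were 3 with library totals and DESeq2, 2 in the limma fits and 3 to 5 with a library left out, against 5. Targets higher were 6 to 10, and lower 0 to 1, with a library left out. Lectin and scavenger receptors lower were 0 with library totals, DESeq2 and the limma fits, and 0 to 1 with a library left out, against 1. Fits without a filter, by DESeq2 and with a library left out also tested other genes (23349, 17011 and 13524 to 13645, against 13323), so these counts differ in the genes tested as well. The causes of the remaining shifts were not tested. Depth limits Nlrp3, Tlr1 and the control levels of Tlr7 and Tlr13, where 3 counts are 0.349 to 0.439 CPM.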

Other observations

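Other pattern receptors were measured in the same libraries. Of 22 lectin, scavenger and formyl peptide receptors 12 were tested, and 9 rose, 1 fell and 2 did not pass. Among all genes tested 26.4% rose and 26.2% fell. The list's median was 3.24 on the log2 scale. Msr1 and others of this list met the low-count filter through the knockout libraries only and so had to be higher there to be tested. Stab1, a scavenger receptor of endothelial cells and macrophages, averaged 818 ± 35.9 CPM in knockout and 222 ± 11.2 CPM in control cells (log2 fold change 1.88, SE 0.0376, adjusted p = 2.67e-46). Msr1, the macrophage scavenger receptor, averaged 15.3 ± 1.30 CPM in knockout and 0.999 ± 0.173 CPM in control cells (3.92, SE 0.216, adjusted p = 1.17e-24). Colec12, a collectin, fell to 3.60 ± 0.568 CPM in knockout cells, against 5.32 ± 0.893 CPM in control cells (-0.55, SE 0.211, adjusted p = 0.0241). That call was lost with library totals, DESeq2 and limma, and without knockout replicate 2 (adjusted p = 0.0918), knockout replicate 3 (0.0797), control replicate 2 (0.0774) or control replicate 3 (0.0992).

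Of 15 cytosolic nucleic acid sensors and their factors 12 were tested, and 8 rose, 0 fell by edgeR (0 at an unadjusted p under 0.05, and 0 by the DESeq2 test) and 4 did not pass, with a median of 0.72. Over all genes tested edgeR called 26.4% higher and 26.2% lower, and DESeq2 called 15.5% of its genes lower. Tmem173, which encodes the STING adaptor of cytosolic DNA sensing, averaged 77.0 ± 2.39 CPM in knockout and 32.1 ± 1.72 CPM in control cells (1.27, SE 0.0668, adjusted p = 1.38e-25). Trim25, a ubiquitin ligase of RNA sensing, averaged 89.9 ± 5.38 CPM in knockout and 43.2 ± 2.18 CPM in control cells (1.05, SE 0.0623, adjusted p = 4.64e-23). The macrophage and endothelial medians in these libraries were 3.33 and 1.71, and their part was not tested. Knockout replicate 1 was the highest knockout library in 10 of these 12 genes, against 33.3% of all genes tested, and control replicate 2 was the highest control library in 2 of the 12.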
